A study of Homo sapiens with 8 samples.

Results

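The 42 genes described here code for subunits of the proteasome, for the chaperones that assemble it, and for its activators and its inhibitor. They were chosen by name, as the genes with a PSMA, PSMB, PSMC, PSMD, PSME, PSMF or PSMG symbol on a probe set annotated to that symbol alone, out of 19775 genes chosen in the same way. Each gene was represented by its probe set with the highest mean over the 8 arrays, and no measured change entered that choice of probe set. The genes as a set were chosen with earlier results of these data known. Of 48 proteasome symbols looked for, PSMA6 and PSME2 are on probe sets that carry several symbols. These and PSMB11, PSMC5, PSMD7 and PSMD13, 6 genes in all, were left out of the 42 and of every class median given here. The cells were CCRF-CEM-C7-14, a glucocorticoid-sensitive clone of cultured human T-cell leukaemia, so 1 line stands for the disease. The groups were 3 arrays of untreated cells (0 h), 3 arrays of cells after 2 h in 1 µM dexamethasone, a synthetic glucocorticoid, and 2 arrays after 10 h. Before the hormone was added, the medium of all cultures was changed to one whose serum had been stripped of steroids with charcoal. Vehicle-treated cells of the same ages were not analysed here, so hormone and time in that medium cannot be told apart.

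The proteasome degrades proteins that carry ubiquitin. Its barrel, the core particle, is built of rings of alpha subunits, which gate the entrance, around rings of beta subunits, some of which cut peptide bonds. A regulatory particle on the end of the barrel recognises ubiquitin, removes it, and unfolds and feeds in the protein with a ring of ATPases, and lymphoid cells can exchange the cutting subunits for the immune subunits PSMB8, PSMB9 and PSMB10, which alter the peptides made for antigen presentation. Glucocorticoids are known to raise ubiquitin-proteasome genes in wasting muscle, and in sensitive lymphoid cells they cause growth arrest and death.

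No proteasome gene passed the test at either time. Values are log2 expression, as deposited, and the test was limma's moderated test with the Benjamini-Hochberg adjustment made over all 19775 genes. A gene with an adjusted p below 0.05 was called. At 2 h against 0 h, 0 of the 42 genes were called, where 0.0202% of all genes were. At 10 h against 0 h, 0 of 42 were called, where 0.354% of all genes were, and at 10 h against 2 h, 0 of 42 were called, where 0.167% were. limma's F test over the 3 times called 0 of 42 as well, where 0.283% of all genes were called. At an unadjusted p below 0.05 the members, each by its brightest probe set, counted 0 at 2 h against 0 h (0.946% of all genes). They counted 1 at 10 h against 0 h (3.44%) and 1 at 10 h against 2 h (3.15%), and the 1 gene was PSMG1 in both comparisons. The F test gave 1 of 42 members an unadjusted p below 0.05, against 493 of all genes.

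The differences between times were small for the brightest probe set of each gene, and the intervals bound how large they could be on those probe sets. At 2 h against 0 h the log2 differences of the 42 genes ran between -0.08 and 0.26 with a median of 0.08, where the median of all genes was 0.02, and 36 of the 42 were above 0 (85.7%, against 55.7% of all genes). Without 0 h replicate 3 the 2 medians were 0.06 and 0.06. Among the 3 arrays with the lowest overall medians, the 41 members above the negative controls had a median of 0.02. Of these 41, 26 were above 0, and the median of all genes on those arrays was 0.03. Those of 10 h against 0 h ran between -0.46 and 0.29 with a median of 0.01, where the median of all genes was -0.02, and 24 of 42 were above 0 (57.1%, against 44.6% of all genes). For 10 h against 2 h the median was -0.07, where that of all genes was -0.03, and 33 of 42 were below 0, which left 21.4% above 0, against 42.5% of all genes. The 95% intervals lay within a 2-fold change in either direction for all 42 genes in each of the 3 comparisons. Of all genes, 99.3% had such intervals at 2 h against 0 h, 96.9% at 10 h against 0 h and 97.1% at 10 h against 2 h. With a replicate block in the fit, 41 of 42 members did at 10 h against 2 h. Dimmer probe sets of PSMA5, PSMB4 and PSMG4 had intervals that passed 2-fold in at least 1 comparison. Intervals of the brightest probe sets lay within 1.5-fold for 37 of 42 genes at 2 h against 0 h, where 73.2% of all genes had intervals that narrow. At 10 h against 0 h this held for 33 of 42, and for 50.7% of all genes. Between arrays of the same time the members' median residual SD was 0.169, where that of all genes above the negative controls was 0.227.

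**Figure D1:**
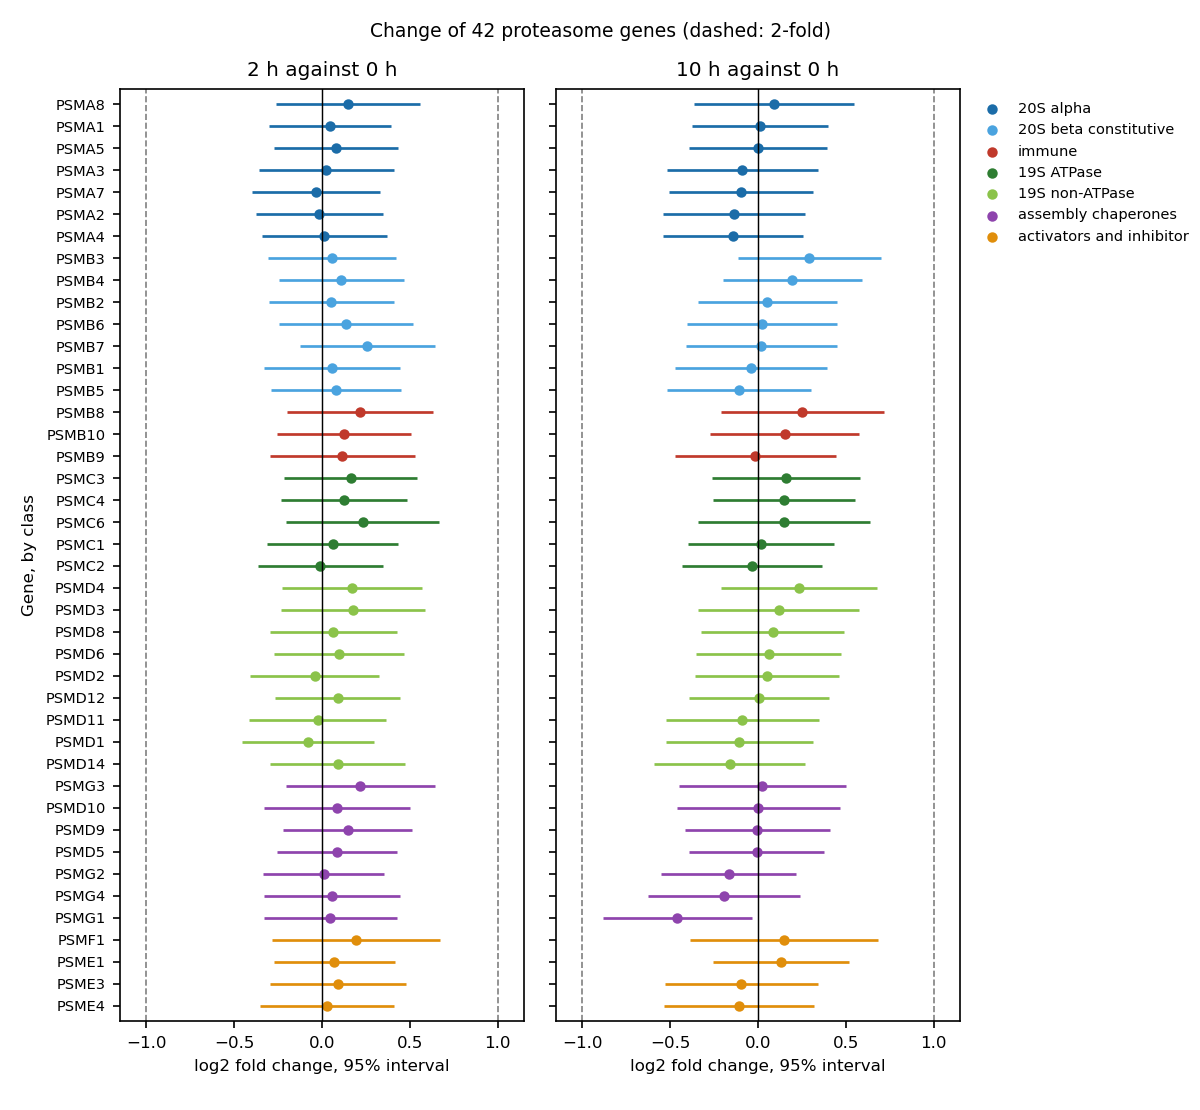
Log2 difference of each of the 42 proteasome genes at 2 h against 0 h (left) and at 10 h against 0 h (right), with the 95% interval of limma's moderated test (bars), coloured by role, and dashed lines at a 2-fold change. Every interval but that of PSMG1 at 10 h holds 0, and all lie inside the dashed lines.

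The outer rings of the core particle showed no difference past the test. Of the 7 alpha genes measured, 6 were well above the negative control probe sets, whose highest value was 4.73, and PSMA8, the subunit of spermatogenic cells, averaged 3.85 over the 8 arrays and is at background. The median log2 difference of the alpha genes was 0.03 at 2 h against 0 h, and -0.09 at 10 h against 0 h. PSMA4, with the lowest difference of them at 10 h, had log2 values of 11.55, 11.39 and 11.43 at 0 h, 11.62, 11.45 and 11.34 at 2 h, and 11.25 and 11.38 at 10 h. Both 10 h arrays were just below all 0 h arrays, and the difference was -0.14 ± 0.19 (SE; 2 arrays against 3; adjusted p = 1). PSMA8 had the highest difference of the class, 0.09 ± 0.22, between values that are all at background. PSMA1, PSMA2, PSMA3, PSMA5 and PSMA7 had log2 differences between -0.14 and 0.01 at 10 h against 0 h.

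The beta subunits that are always part of the core had a median log2 difference of 0.08 at 2 h against 0 h and of 0.02 at 10 h against 0 h. At 2 h 7 of 7 were above 0, against 55.7% of all genes. The highest of all 42 members at 10 h against 0 h was PSMB3, a beta subunit without a cutting site. PSMB3 had log2 values of 11.75, 12.12 and 12 at 0 h, 12.10, 12.05 and 11.89 at 2 h, and 12.24 and 12.26 at 10 h. The 10 h arrays were above every earlier array, and the log2 difference of 10 h against 0 h was 0.29 ± 0.19, a 1.23-fold level with a 95% interval of 0.923 to 1.62 (adjusted p = 1). PSMB4, another non-cutting beta subunit, had 11.81 and 11.89 at 10 h, against 11.72, 11.76 and 11.49 at 0 h, a difference of 0.20 ± 0.19. PSMB7 stood highest of all members at 2 h against 0 h, with 10.91, 10.87 and 10.70 at 2 h, against 10.76, 10.48 and 10.46 at 0 h. The groups overlapped, the difference was 0.26 ± 0.18 (unadjusted p = 0.171), and at 10 h against 0 h PSMB7 was at 0.02 ± 0.20.

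The 3 cutting subunits and the immune subunits that can take their places are set side by side here, because their balance decides whether a cell makes standard or immune proteasomes. PSMB5, the chymotrypsin-like subunit, had log2 values of 10.06, 9.85 and 10.00 at 0 h, 10.11, 10.18 and 9.86 at 2 h, and 9.72 and 10.00 at 10 h. PSMB8, its immune counterpart, had 10.38, 10.09 and 10.01 at 0 h, 10.61, 10.49 and 10.04 at 2 h, and 10.23 and 10.59 at 10 h. For each gene the 10 h arrays overlapped the 0 h arrays: the log2 difference at 10 h against 0 h was -0.11 ± 0.20 for PSMB5 and 0.25 ± 0.22 for PSMB8, with a 95% interval of -0.21 to 0.72 for PSMB8. PSMB6, the caspase-like subunit, had 11.41, 11.13 and 11.10 at 0 h, 11.42, 11.44 and 11.20 at 2 h, and 11.05 and 11.43 at 10 h. PSMB9, which takes its place, had 9.57, 9.17 and 9.25 at 0 h, 9.71, 9.47 and 9.17 at 2 h, and 9.14 and 9.49 at 10 h. At 10 h against 0 h the difference was 0.02 ± 0.20 for PSMB6 and -0.01 ± 0.22 for PSMB9, and for both the arrays of a single time were farther apart than the times. PSMB10, which replaces the trypsin-like subunit PSMB7, had 9.81, 9.83 and 9.56 at 0 h, 10.00, 9.94 and 9.63 at 2 h, and 9.74 and 10.03 at 10 h, with a difference of 0.15 ± 0.20 at 10 h against 0 h. The immune genes as a class had a median log2 difference of 0.13 at 2 h and 0.15 at 10 h against 0 h, and 0 of 3 were called.

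**Figure D2:**
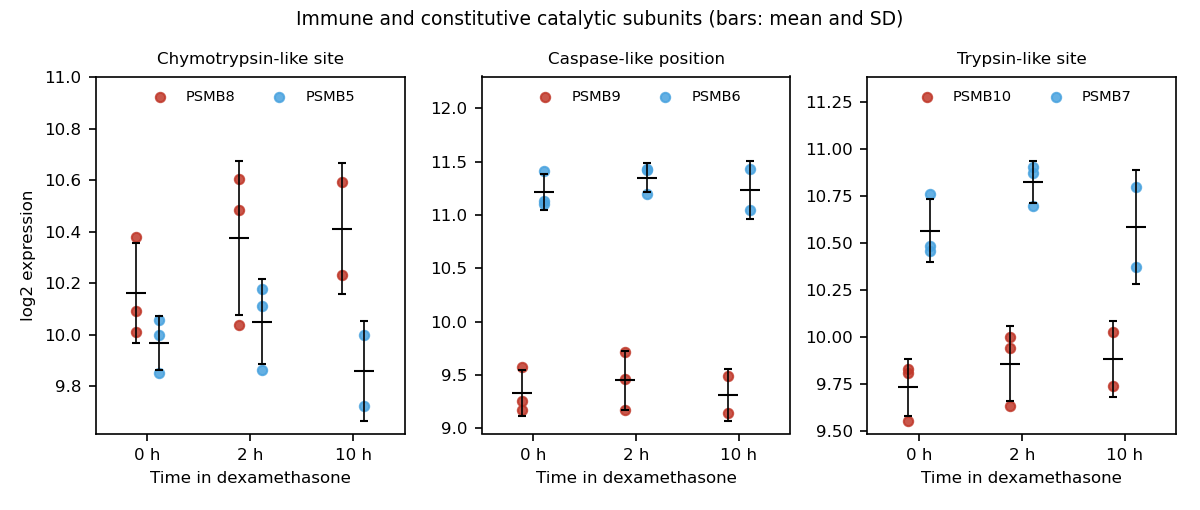
Log2 values on each array of the 3 immune subunits (red) and of the constitutive subunits whose places they take (blue), at 0, 2 and 10 h. Points are the 3, 3 and 2 arrays, and bars are their mean and SD. Levels are not comparable between genes, and for every gene the 10 h arrays overlap the 0 h arrays.

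Taken within each array, the log2 value of PSMB8 minus that of PSMB5 was 0.32, 0.24 and 0.01 at 0 h, 0.50, 0.31 and 0.18 at 2 h, and 0.51 and 0.59 at 10 h. The 10 h arrays were above all 6 earlier arrays, by a small margin over the highest 2 h array, and the mean at 10 h was 0.36 above the mean at 0 h. The corresponding difference between the 10 h and 0 h means was -0.04 for PSMB9 minus PSMB6 and 0.13 for PSMB10 minus PSMB7. A difference between probe sets of different genes shows unequal movement and not which member moved, and these 3 differences were described without a test.

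The ATPases of the regulatory particle had a median log2 difference of 0.13 at 2 h and 0.15 at 10 h against 0 h, and 0 of the 5 measured were called. PSMC3 had the highest of the class at 10 h, with log2 values of 10.05, 9.82 and 9.90 at 0 h, 10.25, 9.95 and 10.07 at 2 h, and 9.88 and 10.28 at 10 h. The 10 h arrays were on either side of the 0 h arrays' mean, and the difference was 0.16 ± 0.20. PSMC2 had the lowest, with 10.83 and 11.11 at 10 h, against 11.10, 10.95 and 10.97 at 0 h, a difference of -0.03 ± 0.19. PSMC6 had 10.56, 10.51 and 9.75 at 0 h, 10.55, 10.44 and 10.52 at 2 h, and 10.34 and 10.51 at 10 h. The 1 low value, of 0 h replicate 3, carried its difference: 0.23 at 2 h against 0 h with all arrays was -0.03 without that array, and 0.15 at 10 h against 0 h was -0.11.

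The non-ATPase subunits of the regulatory particle, among them its ubiquitin receptors and its deubiquitinase, had a median log2 difference of 0.09 at 2 h and 0.05 at 10 h against 0 h, with 0 of 9 called. PSMD4, a ubiquitin receptor, had the highest at 10 h, with log2 values of 10.13, 9.98 and 10.34 at 0 h, 10.37, 10.42 and 10.17 at 2 h, and 10.12 and 10.64 at 10 h. Only 1 of the 10 h arrays was above the 0 h arrays, and the difference was 0.23 ± 0.21. PSMD14, the deubiquitinase that strips ubiquitin from the substrate, had the lowest, with 10.98, 10.62 and 11.04 at 0 h, 10.91, 10.97 and 11.03 at 2 h, and 10.54 and 10.90 at 10 h. Both 10 h arrays were below the 2 h arrays but 1 overlapped the 0 h arrays, and the difference was -0.16 ± 0.20 at 10 h against 0 h and -0.25 ± 0.20 at 10 h against 2 h (adjusted p = 1 for both). The large scaffold PSMD1, the scaffold PSMD2 and the subunits PSMD3, PSMD6, PSMD8, PSMD11 and PSMD12 had differences between -0.11 and 0.12 at 10 h against 0 h.

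Activators bind the ends of the barrel in place of the regulatory particle. PSME1, a subunit of the activator that interferon induces, had log2 values of 11.35, 11.38 and 11.32 at 0 h, 11.41, 11.52 and 11.32 at 2 h, and 11.48 and 11.49 at 10 h. Both 10 h arrays were above the 0 h arrays, with a difference of 0.13 ± 0.18 and a 95% interval of -0.26 to 0.52. PSME3, the nuclear activator, had 9.36 and 9.73 at 10 h, against 9.79, 9.56 and 9.57 at 0 h, a difference of -0.10 ± 0.21. PSME4, a large nuclear activator of a single chain, had 9.05 and 9.30 at 10 h, against 9.54, 9.29 and 9.02 at 0 h, a difference of -0.11 ± 0.20. Both genes overlapped between the times. PSMF1, an inhibitor of the core particle in vitro, had 9.42, 9.46 and 8.45 at 0 h, 9.28, 9.31 and 9.32 at 2 h, and 9.27 and 9.24 at 10 h. Again 0 h replicate 3 was the low array, and it set the sign: the difference of 10 h against 0 h was 0.15 ± 0.25 with it and -0.18 without it, and that of 2 h against 0 h was 0.20 with it and -0.13 without it.

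The assembly chaperones hold the one member whose brightest probe set had a 95% interval at 10 h against 0 h that excluded 0. PSMG1 works as a partner of PSMG2 to bring the alpha subunits together into a ring. PSMG1 had log2 values of 11.01, 11.13 and 10.84 at 0 h, 10.94, 10.90 and 11.28 at 2 h, and 10.41 and 10.65 at 10 h. Both 10 h arrays were below all 6 earlier arrays, while the 0 h and 2 h arrays overlapped. The difference of 10 h against 0 h was -0.46 ± 0.20, a 0.726-fold level with a 95% interval of 0.541 to 0.974, and its unadjusted p of 0.0347 became 1 when adjusted over all genes in limma's moderated test. Against 2 h it was -0.51 ± 0.20 (unadjusted p = 0.0215, adjusted p = 1). PSMG1 was called in none of 20 other ways of processing the data, with adjusted p between 0.369 and 1 at 10 h against 0 h.

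PSMG2, the partner of PSMG1, had 11.20 and 11.10 at 10 h, against 11.37, 11.25 and 11.32 at 0 h. Its arrays did not overlap either, but the difference was small, -0.17 ± 0.18. PSMG3, a chaperone of the same step, had the highest difference of the class at 10 h, 0.02 ± 0.22, with 8.04 and 8.59 at 10 h, against 8.58, 8.10 and 8.19 at 0 h. Its partner PSMG4 was at -0.19 ± 0.21. PSMD5, PSMD9 and PSMD10, which help to build the ATPase ring, were between -0.01 and 0.00 at 10 h against 0 h. Over the 7 chaperone genes the median difference was 0.09 at 2 h against 0 h, -0.01 at 10 h against 0 h and -0.18 at 10 h against 2 h. In the last of these 7 of 7 were below 0, where 42.5% of all genes were above 0, and the median of all genes was -0.03.

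**Figure D3:**
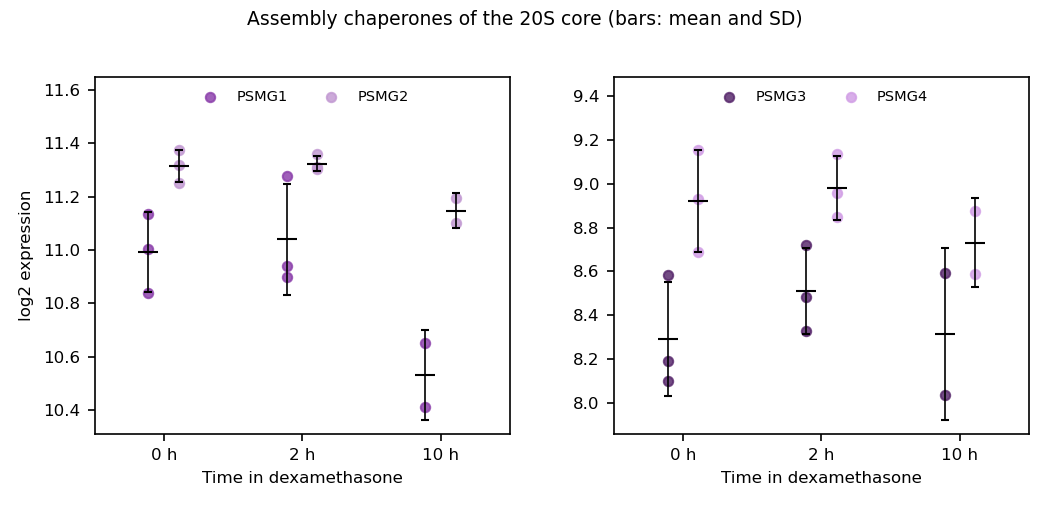
Log2 values of the chaperones of the core particle, PSMG1 and PSMG2 on the left and PSMG3 and PSMG4 on the right, at 0, 2 and 10 h. Points are arrays, and bars are the mean and SD. The 10 h arrays of PSMG1, at 10.41 and 10.65, lie below all its earlier arrays, and those of PSMG3, at 8.04 and 8.59, lie far apart.

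Genes were also counted whose arrays of 2 times do not overlap. At 2 h against 0 h, 1 of 42 members did not overlap, PSMD5, where 4.04% of all genes did not. At 10 h against 0 h, 6 of 42 did not, where 13.1% of all genes did not: PSMB3, PSMB4 and PSME1 were higher and PSMA4, PSMG1 and PSMG2 lower at 10 h. At 10 h against 2 h, 6 of 42 did not, where 14.7% of all genes did not: PSMB3 was higher and PSMD5, PSMD14, PSMF1, PSMG1 and PSMG2 were lower at 10 h. The members' shares were near those of all genes.

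PSMG1 and PSMB3 mark the low and the high end of the members at 10 h against 0 h, and their promoters are printed for that reason. Proteasome genes are known to be driven together by the factor NFE2L1, which binds antioxidant response elements, and by NF-Y, which binds CCAAT boxes. The windows are RefSeq's for assembly GRCh38.p14, from 250 bases before to 50 after the transcription start, written 5′ to 3′ on the gene's strand: chr21:39183402-39183701 on the minus strand for PSMG1, and chr17:38752491-38752790 on the plus strand for PSMB3. Capitals mark matches on either strand to the element core TGACNNNGC and to CCAAT, which do not overlap here.
PSMG1: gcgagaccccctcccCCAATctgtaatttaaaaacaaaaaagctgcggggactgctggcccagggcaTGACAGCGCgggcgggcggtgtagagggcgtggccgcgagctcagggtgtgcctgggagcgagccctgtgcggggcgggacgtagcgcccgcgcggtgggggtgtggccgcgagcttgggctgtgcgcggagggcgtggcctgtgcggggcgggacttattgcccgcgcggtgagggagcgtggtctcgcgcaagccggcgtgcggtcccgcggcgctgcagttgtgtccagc
PSMB3: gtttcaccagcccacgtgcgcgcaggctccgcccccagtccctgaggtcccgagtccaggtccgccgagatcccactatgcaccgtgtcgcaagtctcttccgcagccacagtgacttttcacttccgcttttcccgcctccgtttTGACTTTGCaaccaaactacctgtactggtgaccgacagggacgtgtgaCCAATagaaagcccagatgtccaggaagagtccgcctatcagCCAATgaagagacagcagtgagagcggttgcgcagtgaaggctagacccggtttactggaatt
The window of PSMG1 holds 1 element core, between positions -183 and -175 from the start, and 1 CCAAT box, and that of PSMB3 holds 1 element core, between positions -104 and -96, and 2 CCAAT boxes. RefSeq windows were given for 36 of the 42 members, 43 windows in all. The element core was in 13 of the 43 (30.2%), against 13.3% of all 35116 promoter windows, and CCAAT was in 17 of 43 (39.5%), against 34.6%. For the glucocorticoid receptor, the short binding site AGAACA, chosen after the values were seen, was searched on both strands. It was in 6 of 43 windows (14%), against 14.8% of all windows. Each match is a run of letters and says nothing of binding in these cells.

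Arrays of the same time differed as much as the times did. The median deviation of the 41 members above background from their own means over the 8 arrays was 0.08, -0.05 and -0.09 at 0 h, 0.09, 0.05 and -0.04 at 2 h, and -0.15 and 0.11 at 10 h. The 2 arrays at 10 h were thus the lowest and the highest of the 8: on 10 h replicate 1, 36 of the 41 genes were below their own mean, and on 10 h replicate 2, 4 of 41. The array medians over all probe sets followed this in part: 3 arrays on which the members were low (0 h replicate 2, 2 h replicate 3 and 10 h replicate 1) had medians of 4.68 to 4.77, and the others 4.91 to 5.01. The exception was 0 h replicate 3, which had the highest array median, 5.01, while 30 of the 41 members were below their own means on it. On those 3 arrays 32 of the 41 members were lower than on the others (78%), against 86.8% of all genes, and the part of these arrays in the members' values was not tested. Among the 3 arrays alone the median of the 41 members at 10 h against 0 h was -0.08, and among the other 5 it was 0.08, with PSMG1 at -0.72 and -0.27.

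**Figure D4:**
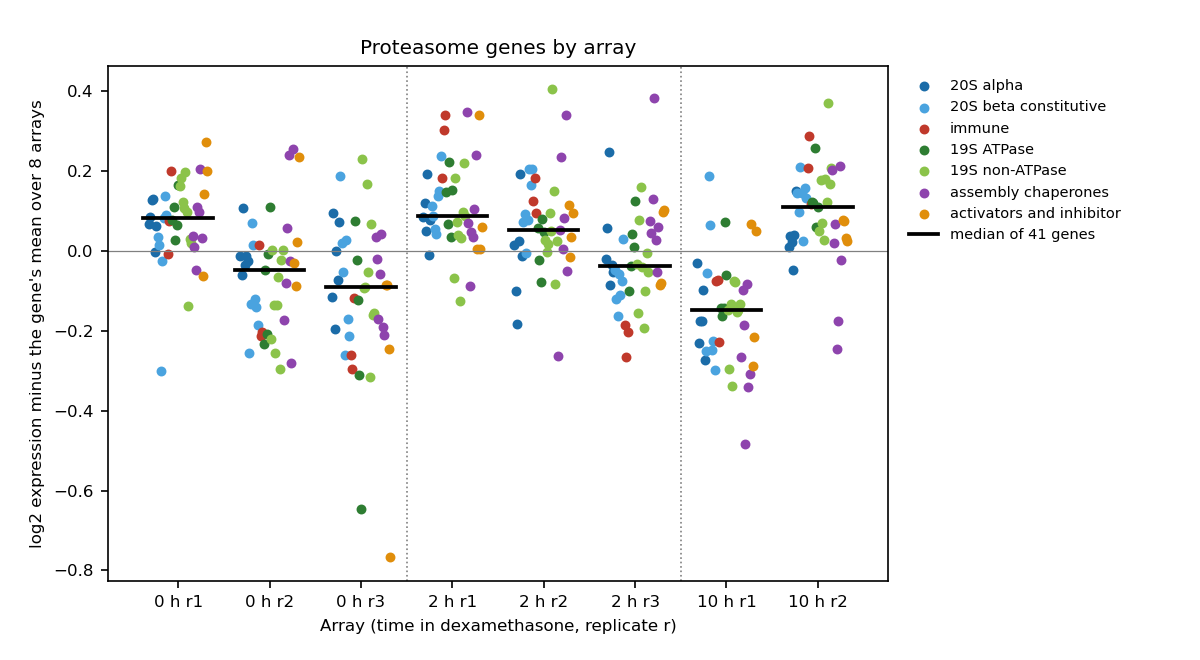
Deviation of each proteasome gene above background from its own mean over the 8 arrays (log2), for each array in order of time. Points are genes, coloured by class, and black lines are the medians over the 41 genes. The 10 h arrays, at -0.15 and 0.11, lie at opposite ends.

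Other probe sets of the same genes often differed in sign from the brightest. Of 30 other probe sets above the negative controls, 14 had the opposite sign at 10 h against 0 h, in 12 of 20 genes. The 42 genes have 81 probe sets with that single symbol, 22 genes having more than 1, and 0 of the 81 were called in any comparison when all 54613 probe sets were fitted (smallest adjusted p 0.509). That smallest value belonged to a probe set of PSMB4 that was dimmer than the gene's others but, with a mean of 7.19, above the negative controls. It had log2 values of 8.15, 7.01 and 8.24 at 0 h, 7.06, 6.98 and 6.69 at 2 h, and 6.38 and 7.0 at 10 h. Its 2 h arrays overlapped the 0 h arrays, and its 10 h arrays were below every 0 h array, 1 of them barely, a difference of -1.11 ± 0.31, where the brightest PSMB4 probe set was at 0.20 and a further one at 0.42. A dim second probe set of PSMG4 was at 0.92 ± 0.32 at 10 h against 0 h, where the brightest was at -0.19. Among the rest, a second probe set of PSMA5 was at -0.46, where the brightest was at 0.00, and 1 of PSMA3 at 0.41, where the brightest was at -0.09. These probe sets were chosen for mention after their values were seen. In limma's moderated test 2 of the 81 had an unadjusted p below 0.05 at 2 h against 0 h. It was 3 of 81 at 10 h against 0 h and 2 of 81 at 10 h against 2 h, with that of PSMG1 among them in both. The shares over all probe sets are not given here.

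**Figure D5:**
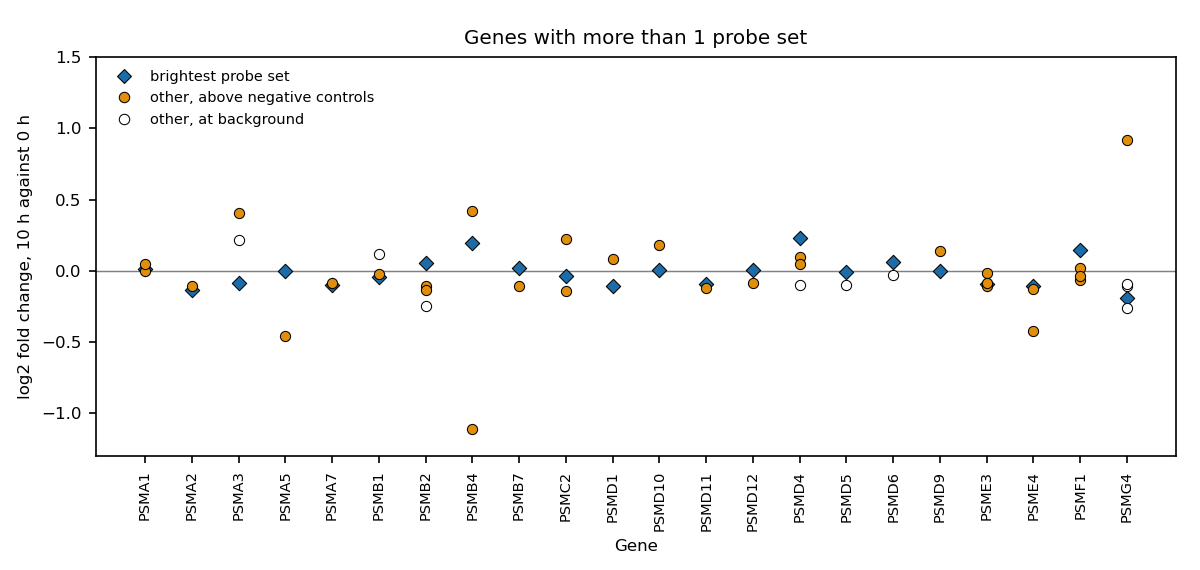
Log2 difference at 10 h against 0 h of every probe set of the 22 genes with more than 1. Diamonds are the brightest probe set of each gene, filled circles other probe sets above the negative controls, and open circles those at background. The 2 extreme values are -1.11 for PSMB4 and 0.92 for PSMG4.

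Genes that act with the proteasome were not called either. Of the proteasome-associated genes, 14 were measured, with a median log2 difference of -0.04 at 10 h against 0 h. The maturation factor POMP was at 0.09 ± 0.18, the ubiquitin receptor ADRM1 at -0.13 ± 0.20 and the deubiquitinase USP14 at -0.18 ± 0.20. Among 6 ubiquitin and segregase genes the median was 0.14, with the polyubiquitin gene UBB at -0.08 ± 0.19 and the unfoldase VCP at 0.17 ± 0.21. The farthest of that list was the ubiquitin-activating enzyme UBA6, named after its value was seen, at -0.54 ± 0.23 (unadjusted p = 0.0326, adjusted p = 1 in limma's moderated test). Of 8 genes for factors that transcribe proteasome genes or for proteins that process those factors, 7 were below 0. That left 12.5% above 0, against 44.6% of all genes, and their median was -0.09, where that of all genes was -0.02. The farthest was NGLY1, the enzyme that takes sugars off NFE2L1, also named after its value was seen, at -0.52 ± 0.23 (unadjusted p = 0.0347, adjusted p = 1 in limma's moderated test). NFE2L1 had 8.33 and 8.54 at 10 h, against 8.85, 8.37 and 8.64 at 0 h, which overlap, a difference of -0.18 ± 0.20, and NFE2L2, its relative in oxidative stress, was at -0.09 ± 0.24. The muscle-wasting ligase FBXO32, which glucocorticoids raise in muscle, was at background, with a mean log2 value of 4.15 over the 8 arrays. It had 4.34 and 4.51 at 10 h, against 3.81, 3.79 and 4.17 at 0 h, a difference of 0.50 ± 0.22 between values at background. The unadjusted p of FBXO32 in limma's moderated test was 0.0387, and it was not called.

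Antigen processing genes, which use the peptides the immune subunits shape, had a median log2 difference of 0.26 at 10 h against 0 h, with 11 of 13 above 0 and 0 called, where the median of all genes was -0.02 and 44.6% were above 0. For all of these genes except TAP1, TAP2, B2M and NLRC5, 0 h replicate 3 was the lowest 0 h array. CALR, for example, was at 7.71 on it, against 8.74 and 8.87 on the other 0 h arrays. The part of that array in the median was not tested. The peptide transporter TAP1 had 8.39 and 8.67 at 10 h, against 8.45, 8.15 and 8.32 at 0 h, a difference of 0.23 ± 0.21. The class I light chain B2M was at 0.01 ± 0.19, and IRF1, a transcription factor that drives the immune subunits, was at -0.27 ± 0.22. The farthest of the list was the trimming peptidase ERAP2, named after its value was seen, with 10.24 and 10.43 at 10 h, against 9.99, 9.67 and 9.28 at 0 h. Its 10 h arrays were above all 0 h arrays and the difference was 0.69 ± 0.22, with an adjusted p of 0.615 in limma's moderated test.

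Markers were read to see what cells the arrays hold. Of 10 T lineage markers 9 were above the highest negative control value, and CD2 was not, which also held for 3 of 4 B lineage, 1 of 4 myeloid, 1 of 2 erythroid and 3 of 3 epithelial and stromal markers. Among those were CD79A at a mean of 8.78 and EPCAM at 8.56, and no marker was called in any comparison (smallest adjusted p 0.518, for CD79A at 10 h against 0 h). Marker levels are not comparable between genes, and their part in the proteasome values was not tested.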

How the data were processed

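Biotin-labelled total RNA was read on single-colour arrays. The deposited values are log2 expression of 54675 probe sets on 8 arrays, and per the submitters' processing notes the authors made them with RMA (version not stated). Joint processing of all arrays is not stated either, and their medians ran between 4.68 and 5.01. No file gives background or scanner signals, so the number of arrays limits the precision. Names came from the platform annotation, which gave 41091 probe sets 1 symbol and 1801 several, and none was named from a probe set with several. Control probe sets stayed out of the fit.

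Groups came from the stated time. The labels call the arrays biological replicates without saying what was repeated, so the p-values rest on a spread between samples that may be technical. Identical values made up at most 0.269% of any pair of arrays. All 8 arrays were fitted in limma 3.58.1 under R 4.3.3 (lmFit and eBayes, a mean for each time, 5 residual degrees of freedom), and tests are two-sided. The labels do not say whether replicate numbers pair the samples. Deviations of arrays with the same number correlated at -0.268 to 0.264 over genes, and those with different numbers at -0.196 to 0.268. These ranges cannot decide the question, because the deviations of the 10 h arrays mirror each other by construction.

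Genes named in full were the catalytic pairs, the activators other than PSME2, the inhibitor, the highest and lowest of each class at 10 h against 0 h, and a fixed set from the related lists. PSMB4, PSMC6, PSMG2, PSMG4, ERAP2, UBA6 and NGLY1 were added after their values were seen. The members, lists and alternatives were chosen with earlier results of these data known. Alternatives covered the probe set per gene, normalization, the variance model, a filter on dim genes, a replicate block, the arrays in the fit, each array left out, and the arrays with low medians. The steps were tested on simulated data. Coordinates are RefSeq's, not the arrays'. Protein sequences were not used here.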

Additional observations from a re-analysis of the deposited data

How the results depend on the processing

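Under 20 alternatives for each comparison, 0 of the proteasome genes were called in any, and the smallest adjusted p of a member was 0.369 (PSMG1 at 10 h against 0 h, with array weights). The median log2 difference of the members stayed between 0.02 and 0.12 at 2 h against 0 h, between -0.12 and 0.14 at 10 h against 0 h, and between -0.19 and 0.05 at 10 h against 2 h. Leaving out 1 array in turn gave 0.05 to 0.12 at 2 h against 0 h, -0.12 to 0.14 at 10 h against 0 h, and -0.19 to 0.054 at 10 h against 2 h, with the upper ends of the last 2 without 10 h replicate 1 and the lower ends without 10 h replicate 2. The median of 10 h against 0 h, 0.01 with all arrays, also turned negative without 0 h replicate 2 (-0.04), without 0 h replicate 3 (-0.03) and with array weights (-0.07), and that of 10 h against 2 h turned positive without the 3 arrays of lowest median (0.01). Beside the median of all genes, that of the members at 2 h against 0 h was 0.06 higher with all arrays and 0.01 lower without 0 h replicate 3. Quantile normalization gave 0.02 at 2 h against 0 h. With a replicate block 0 members were called and the medians were 0.08, -0.02 and -0.09 in the 3 comparisons, although the labels do not say that the numbers pair the samples. PSMG1 was between -0.58 and -0.27 at 10 h against 0 h and never changed sign. Of 839 values of single genes per comparison, 66 changed sign at 2 h against 0 h, 104 at 10 h against 0 h and 83 at 10 h against 2 h. With 2 arrays at 10 h, changes smaller than the intervals given could not be detected. On the brightest probe sets, a change whose interval excluded 0, that of PSMG1 at 10 h against 0 h, was not called either.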
